A study of Mus musculus with 6 samples.

Results

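The enzymes described here build and cap the glycans of blast glycoproteins and glycolipids: sialyltransferases, fucosyltransferases, galactosyltransferases, N-acetylglucosaminyltransferases and polypeptide GalNAc-transferases, with 6 genes of sialic acid supply and removal. The 86 genes were chosen by symbol from the 35932 genes of the count table, as every protein-coding gene named St3gal, St6gal, St6galnac, St8sia, Fut, B3galt, B4galt, B3gnt, Galnt, Mgat or Gcnt with a digit, plus Cmah, Gne, Nans, Cmas, Neu1 and Neu3. Their transcripts were measured by RNA sequencing in mouse bone marrow myeloid leukemic blasts, which are the malignant progenitors of this leukemia. All 6 libraries share the MLL-AF9+ genotype, a fusion of the genes Kmt2a and Mllt3. The 3 chemo_resistant libraries carry the treatment label Cytarabin+Doxorubicin, a nucleoside analog with an anthracycline, and the 3 chemo_sensitive libraries that of vehicle. Resistance and drug exposure thus go together in every library and cannot be told apart. The labels give no strain, age, dose or harvest time, and do not say whether the replicates came from separate animals, so the spread behind each p-value is that of these libraries and could be technical.

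Most proteins at the cell surface carry N-glycans on asparagine and O-glycans on serine or threonine. Galnt enzymes place the first sugar of an O-glycan, Gcnt and Mgat enzymes set the number of branches, B4galt and B3gnt enzymes lengthen the branches by turns, and sialyltransferases and fucosyltransferases finish the ends. Sialic acid is made in the cytosol, activated to CMP-sialic acid and, in the mouse, partly hydroxylated by Cmah, the CMP-N-acetylneuraminic acid hydroxylase that turns Neu5Ac into Neu5Gc. In myeloid cells a sialylated and fucosylated end structure, sialyl Lewis x, is the main ligand of the selectins, through which leukocytes roll on vessel walls and home to the marrow.

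Library totals were 31856009, 22206341 and 26217850 counts in resistant blasts and 28980058, 25129812 and 30695602 counts in sensitive blasts. A floor of 3 counts is 0.0945 to 0.136 CPM (counts scaled by library total and TMM factor), for counting error only. Of the 86 genes, 54 passed the filter on low counts and were tested; the other 32 reached at most 0.364 CPM in any library, and 7 of them were at 0 in all 6. Of the 54, 50 were above the filter's level of 0.362 CPM in all 6 libraries. The other 4, Gcnt4, B4galt2, Galnt9 and Mgat4c, reached it in all 3 sensitive libraries and in 0 to 2 resistant ones, so they entered the test through the group where they were higher. Blast markers were present, with a summed level of 3012 to 3630 CPM in resistant and 3504 to 4072 CPM in sensitive libraries. Of these 8 markers, 2 were higher (Hoxa9 and Cd34) and 3 lower (Cebpa, Elane and Kit), and 3, Mpo and Ptprc among them, did not pass; Cebpa, a myeloid transcription factor gene, was at 25.2 ± 3.55 CPM in resistant and 95.7 ± 6.10 CPM in sensitive blasts.

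In resistant blasts, more of the glycan and sialic acid transferase genes were lower than higher. By the edgeR quasi-likelihood test, with p-values adjusted over all 13414 tested genes (Benjamini-Hochberg) and a threshold of 0.05, 28 of the 54 tested genes were lower (51.9%), 5 were higher (9.26%) and 21 did not pass. Among all tested genes, 20.8% were lower and 18.5% higher, 39.2% in either direction. The median log2 fold change of resistant over sensitive was -0.34 for the 54 genes and -0.005 for all tested genes, and among the 50 genes above the filter's level in every library 26 were lower, 5 were higher and the median was -0.30. The 3 resistant values lay below all 3 sensitive values in 30 of the 54 genes, against 27.2% of all tested genes. Gcnt4 and B4galt2 are among the 30. All 3 resistant values lay above the sensitive ones in 5 genes, against 25.2%. Falls of at least 1 on the log2 scale that passed the test were seen in 7 of the genes, against 4.74% of all tested genes, and rises of that size in 2, against 3.05%. Of the 7, Gcnt4 and B4galt2 were tested only through their level in sensitive blasts, which leaves 5 among the 50 genes. Of the 33 calls, 24 were made under each of the 14 alternative settings, left-out libraries included, and 9 were lost under at least 1 of them. In a bulk sample, fewer cells of a type and less RNA per cell cannot be told apart.

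**Figure D1:**
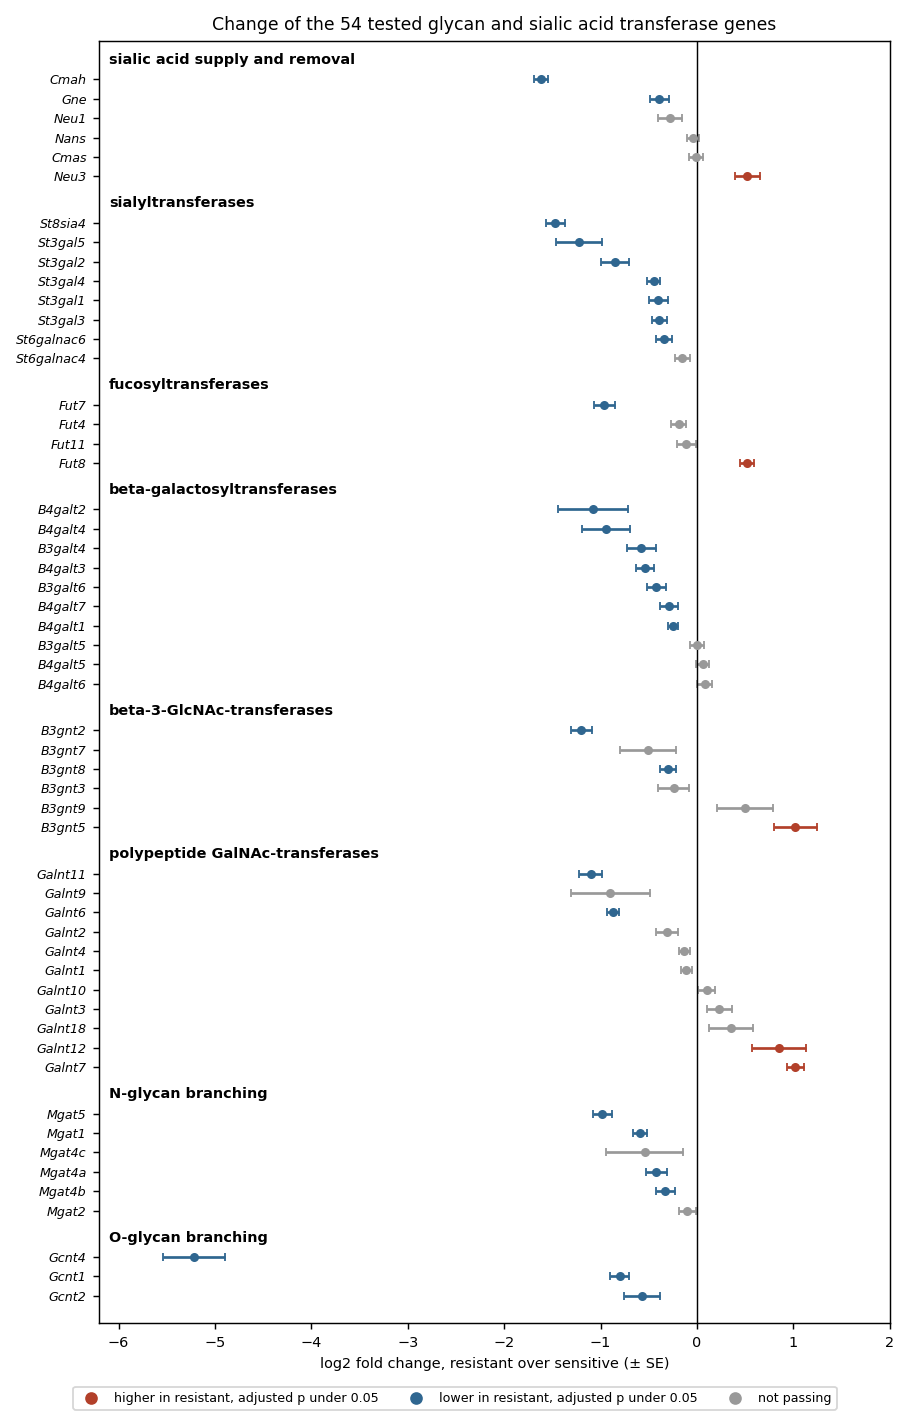
Log2 fold change of resistant over sensitive blasts (x axis, ± SE) for the 54 tested genes, grouped by enzyme family (y axis); colours give the edgeR call. Of the 54 points, 43 lie left of 0, and Gcnt4, at -5.22, lies apart from all others.

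By family, the counts stand beside 20.8% lower and 18.5% higher among all tested genes. Sialyltransferases had 7 of 8 tested members lower and 0 higher, and beta-galactosyltransferases 7 of 10 and 0. The N-glycan branching Mgat family had 4 of 6 and 0, and the O-glycan branching Gcnt family 3 of 3 and 0. These counts include B4galt2 and Gcnt4, which were tested only through their level in sensitive blasts, the group where they were higher. Fucosyltransferases had 1 of 4 lower and 1 higher, the beta-3-GlcNAc-transferases (B3gnt) 2 of 6 lower and 1 higher, and the polypeptide GalNAc-transferases 2 of 11 lower and 2 higher, shares near those of all tested genes. Of the 6 sialic acid supply and removal genes, 2 were lower and 1 higher. Whether the families differ from each other was not tested.

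Most tested markers of neutrophils, monocytes and red cells were lower in resistant blasts too, while in the other lists most were not. The part of other marrow cells and of maturation in the falls was not tested. Neutrophil markers summed to 32.9 to 50.6 CPM in resistant and 204 to 244 CPM in sensitive libraries, with 9 of 10 tested lower. Monocyte markers summed to 424 to 484 CPM in resistant and 949 to 1037 CPM in sensitive libraries, with 6 of 7 lower. Red cell markers summed to 1.10 to 2.96 CPM in resistant and 46.7 to 81.6 CPM in sensitive libraries, with 6 of 7 lower. Eosinophil and mast cell markers went the other way in sum, at 419 to 579 CPM in resistant and 173 to 215 CPM in sensitive libraries. Of the 6, Prg2 and Prg3 were higher and made up most of the sum in resistant libraries. Cpa3 and Mcpt8 were lower, and Epx and Siglecf did not pass. Markers of T and NK cells summed to 73.2 to 100.3 CPM in resistant and 52.1 to 70.6 CPM in sensitive libraries, with 1 of 3 tested higher and 1 lower. Nearly all of that sum was Nkg7, the higher gene, at 86.6 CPM in resistant and 55.4 CPM in sensitive blasts. Cd8a was the lower one, and 6 of the 9 markers were under 1 CPM in all libraries. Megakaryocyte markers summed to 10.2 to 12 CPM in resistant and 11.4 to 12.5 CPM in sensitive libraries, also with 1 of 3 tested higher and 1 lower. B cell markers summed to 38.8 to 41.3 CPM in resistant and 39.1 to 42.4 CPM in sensitive libraries, nearly all of it Cd79b. Stroma and endothelium markers summed to 0.598 to 1.0 CPM in resistant and 0.897 to 1.33 CPM in sensitive libraries.

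The sequence before the start site is shown for the 3 genes with the deepest falls in 3 families, Gcnt4, Cmah and St8sia4, and for Galnt7, a riser. Each is the 250 bases upstream of the first RefSeq transcript start in the build GRCm38.p6, 5′ to 3′ on the gene's strand, in lower case with motif matches in capitals. The positions are chr13:96924094-96924343 (plus strand) for Gcnt4, chr13:24327154-24327403 (plus) for Cmah, chr1:95667595-95667844 (minus) for St8sia4 and chr8:57653056-57653305 (minus) for Galnt7. Gcnt4 and Cmah each have 2 RefSeq starts, and which start the blasts use was not measured.
Gcnt4: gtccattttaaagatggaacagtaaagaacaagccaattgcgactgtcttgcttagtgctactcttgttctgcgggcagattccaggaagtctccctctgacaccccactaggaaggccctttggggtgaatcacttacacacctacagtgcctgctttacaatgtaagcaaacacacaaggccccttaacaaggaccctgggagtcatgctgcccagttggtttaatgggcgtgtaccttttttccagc
Cmah: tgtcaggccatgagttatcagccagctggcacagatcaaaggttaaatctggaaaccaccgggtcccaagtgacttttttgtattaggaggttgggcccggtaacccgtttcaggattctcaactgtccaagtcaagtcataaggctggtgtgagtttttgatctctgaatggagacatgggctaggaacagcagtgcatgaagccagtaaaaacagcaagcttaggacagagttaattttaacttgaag
St8sia4: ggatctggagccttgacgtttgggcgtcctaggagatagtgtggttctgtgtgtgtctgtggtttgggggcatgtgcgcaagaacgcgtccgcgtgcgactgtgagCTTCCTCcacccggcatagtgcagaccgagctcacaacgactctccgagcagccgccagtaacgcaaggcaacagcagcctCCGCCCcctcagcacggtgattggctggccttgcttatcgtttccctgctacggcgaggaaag
Galnt7: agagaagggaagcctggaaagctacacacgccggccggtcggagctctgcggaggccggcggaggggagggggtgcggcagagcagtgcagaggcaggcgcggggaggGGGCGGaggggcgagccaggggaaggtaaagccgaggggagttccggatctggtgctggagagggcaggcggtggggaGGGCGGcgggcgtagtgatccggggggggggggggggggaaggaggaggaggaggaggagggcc

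The motifs searched, on both strands, were TTGCNNAA (C/EBP), GAGGAAG (PU.1 and other ETS factors), CACGTG (E-box) and GGGCGG (GC box). The Gcnt4 and Cmah windows printed here held none of them, nor did the window of the second Cmah start, while that of the second Gcnt4 start held GC boxes 130 and 83 bases before it. The St8sia4 window held the ETS letters 144 bases and a GC box 63 bases before the start, and the Galnt7 window held GC boxes at 142 and 64 bases. Over the lower genes with a promoter entry, 8 of 25 held the ETS letters (32.0%), against 1 of 14 genes that were tested and did not pass (7.14%) and 13.2% of the 9720 tested genes with an entry. The 8 were B4galt3, B4galt7, Fut7, Gcnt1, Mgat1, St3gal3, St3gal4 and St8sia4, and 2 of the 4 higher genes with an entry, Fut8 and B3gnt5, held the letters too. Counting every RefSeq start of a gene, GC boxes were in 19 of 25 lower genes (76.0%, Gcnt4 among them) against 62.3% of the tested genes, C/EBP letters in 2 of 25 (8.0%) against 9.06%, and E-boxes in 0 of 25 against 9.92%. A match of letters is a description of these windows and says nothing of binding.

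Cmah was the most abundant of all 86 transcripts per length in sensitive blasts and the gene of sialic acid supply that fell most. Its level was 582, 472 and 528 CPM in the resistant libraries and 1651, 1541 and 1671 CPM in the sensitive ones. The groups lay far apart, at 527 ± 55.3 CPM in resistant and 1621 ± 70.4 CPM in sensitive blasts (SD, n = 3 each), a 3.07-fold lower level in resistant blasts (log2 fold change -1.62 ± 0.07 SE, edgeR adjusted p = 1.7e-07). Per kilobase of transcript, Cmah stood at 53.9 ± 5.65 CPM per kb in resistant blasts and at 166 ± 7.19 CPM per kb in sensitive blasts. It was first of the 86 in sensitive blasts with either gene length, and in resistant blasts rank 4 with the longest transcript and rank 2, after Fut8, with the union of exons.

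Gne, whose bifunctional product starts sialic acid synthesis from UDP-GlcNAc, had 44.8, 52.3 and 38.2 CPM in resistant and 59.2, 58.0 and 59.8 CPM in sensitive libraries. All resistant values were below the sensitive ones, with a smaller gap than for Cmah (log2 fold change -0.39 ± 0.10 SE, edgeR adjusted p = 0.01). The next steps of the route did not pass. Nans, the sialic acid synthase gene, was at 125 ± 9.02 CPM in resistant and 128 ± 2.62 CPM in sensitive blasts (-0.04 ± 0.06 SE, edgeR adjusted p = 0.66). Cmas, which encodes the enzyme that couples sialic acid to CMP, was at 58.4 ± 3.02 and 58.7 ± 3.18 CPM in resistant and sensitive blasts (-0.01 ± 0.07 SE, edgeR adjusted p = 0.951). The 2 sialidase genes did not move together. Neu3, the plasma membrane sialidase that acts on gangliosides, rose to 12.5, 10.6 and 10.3 CPM in resistant libraries, against 6.91, 7.68 and 8.65 CPM in sensitive ones. Its groups did not overlap (0.52 ± 0.13 SE, 1.44-fold, edgeR adjusted p = 0.00842). Neu1, the lysosomal sialidase, had 119, 164 and 119 CPM in resistant and 146, 170.4 and 172 CPM in sensitive libraries, with resistant library 2 among the sensitive values. It did not pass in the main edgeR fit (-0.28 ± 0.12 SE, edgeR adjusted p = 0.079) but passed as lower in 4 alternatives. With all 6 libraries these were no low-count filter (edgeR adjusted p = 0.0094), DESeq2 (adjusted p = 0.0284) and a replicate block (edgeR adjusted p = 0.0188). The other was the fit without resistant library 2 (-0.44, edgeR adjusted p = 0.00273).

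All 5 tested St3gal genes, which encode alpha-2,3-sialyltransferases that cap galactose, were lower in resistant blasts. St3gal4, the leading member per length and an enzyme of mouse leukocyte selectin ligands, had 29.4, 32.4 and 30.6 CPM in resistant and 42.5, 43.0 and 40.3 CPM in sensitive libraries. The groups were apart by several times their spread (30.8 ± 1.51 against 41.9 ± 1.47 CPM in resistant and sensitive blasts, log2 fold change -0.45 ± 0.07 SE, edgeR adjusted p = 0.000715). St3gal2, which acts on core 1 O-glycans and gangliosides, had 6.68, 7.82 and 5.93 CPM in resistant and 14.6, 11.6 and 10.5 CPM in sensitive libraries (-0.85 ± 0.15 SE, edgeR adjusted p = 0.00146). St3gal5, the GM3 synthase that makes the first ganglioside from lactosylceramide, had 1.51, 1.32 and 1.01 CPM in resistant and 3.06, 3.57 and 2.40 CPM in sensitive libraries. It showed the deepest fall of the St3gal genes, 2.33-fold (-1.22 ± 0.24 SE, edgeR adjusted p = 0.0026). St3gal1, which caps core 1 O-glycans, averaged 16.6 ± 2.09 CPM in resistant and 21.9 ± 0.922 CPM in sensitive blasts, and St3gal3, which acts on type 1 and type 2 chains, averaged 17.2 ± 0.613 CPM in resistant and 22.6 ± 0.414 CPM in sensitive blasts. In each the groups did not overlap (edgeR adjusted p = 0.0106 for St3gal1 and 0.00321 for St3gal3). Summed per kilobase, the St3gal genes stood at 26.5 ± 1.42 CPM per kb in resistant and 36.7 ± 1.40 CPM per kb in sensitive blasts.

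St8sia4, one of the polysialyltransferases that build chains of alpha-2,8-linked sialic acid, had the deepest fall of the sialyltransferases. Its level was 33.8, 31.1 and 30.9 CPM in resistant and 104.2, 83.9 and 77.2 CPM in sensitive libraries. The highest resistant value was well under the lowest sensitive one, with a 2.77-fold lower level in resistant blasts (log2 fold change -1.47 ± 0.10 SE, edgeR adjusted p = 3.53e-06). As a share of the summed sialyltransferase level per kilobase, St8sia4 took 6.52 ± 0.55% in resistant and 12.9 ± 1.37% in sensitive blasts. Of the St6galnac genes, which add alpha-2,6-linked sialic acid to GalNAc, St6galnac6, a member that acts on glycolipids, was lower, at 21.6, 23.8 and 23.3 CPM in resistant and 30.7, 29.0 and 27.2 CPM in sensitive libraries (-0.34 ± 0.08 SE, edgeR adjusted p = 0.00744). St6galnac4 had 33.6, 36.5 and 40.2 CPM in resistant and 42.1, 38.7 and 41.7 CPM in sensitive libraries. Its groups overlapped and it did not pass (-0.15 ± 0.08 SE, edgeR adjusted p = 0.153). St6gal1, the main alpha-2,6-sialyltransferase of N-glycans, was near absent in both groups, with 2 counts over the resistant and 18 over the sensitive libraries, a ratio of 0.12 (exact 95% interval 0.0135 to 0.502 for counting error), and was not tested. St6gal2 had 0 counts, and St3gal6, another selectin ligand sialyltransferase, had 6 counts in resistant and 4 in sensitive libraries (ratio 1.62, 0.384 to 7.81). In all, 12 of the 20 sialyltransferase genes were too low to test.

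**Figure D2:**
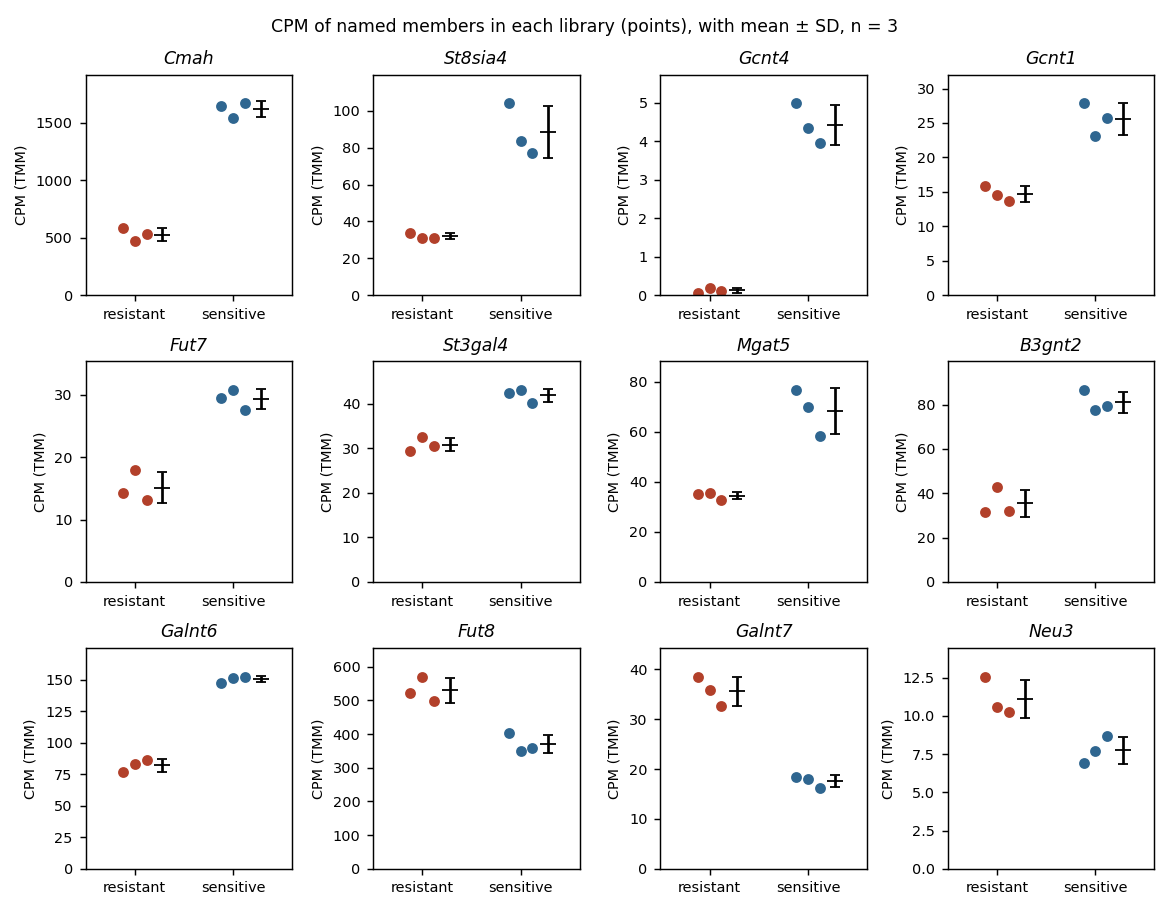
TMM-scaled CPM (y axis, linear, from 0) of 12 genes in each of the 3 resistant and 3 sensitive libraries (points), with the mean ± SD beside them. The 9 genes in the first 9 panels are lower in every resistant library, as for Cmah at 472 to 582 against 1541 to 1671 CPM, and Fut8, Galnt7 and Neu3 are higher in every resistant library.

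The fucosyltransferases went in both directions. Fut7, the alpha-1,3-fucosyltransferase that completes sialyl Lewis x in leukocytes, had 14.2, 17.9 and 13.2 CPM in resistant and 29.5, 30.8 and 27.6 CPM in sensitive libraries. The resistant values were all well below the sensitive ones, 1.94-fold on average (log2 fold change -0.96 ± 0.11 SE, edgeR adjusted p = 0.000106). Fut4, the other myeloid alpha-1,3-fucosyltransferase, which makes Lewis x (CD15), had 28.4, 31.9 and 32.9 CPM in resistant and 34.8, 34.9 and 36.5 CPM in sensitive libraries. Its groups did not overlap, but the gap was small and it did not pass (-0.19 ± 0.08 SE, edgeR adjusted p = 0.073). Of the alternatives, it passed as lower only with scaling by library totals (-0.22, edgeR adjusted p = 0.0378). Fut8, the alpha-1,6-fucosyltransferase that adds the core fucose of N-glycans, rose to 520.9, 569.7 and 499 CPM in resistant libraries, against 402, 351 and 359 CPM in sensitive ones. The groups were apart (0.52 ± 0.07 SE, 1.43-fold, edgeR adjusted p = 0.000242), and at 158 ± 10.8 CPM per kb in resistant and 110.4 ± 8.27 CPM per kb in sensitive blasts Fut8 was the first of the 86 genes per length in resistant blasts. In sensitive blasts it was rank 2, after Cmah, and rank 3 with the union of exons as length, where Mgat2 also came before it. Fut11 did not pass, Fut9 and Fut10 had 0 counts in all libraries, and Fut1 and Fut2 had a few counts. Of the summed fucosyltransferase level per kilobase, Fut8 held 88.9 ± 0.104% in resistant and 79.7 ± 1.16% in sensitive blasts, and Fut7 held 4.09 ± 0.384% in resistant and 10.2 ± 0.818% in sensitive blasts.

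Among the beta-galactosyltransferases, most falls were small. B4galt1, the main enzyme that adds galactose to GlcNAc on N-glycan branches, had 157, 162 and 152 CPM in resistant and 189, 188 and 184 CPM in sensitive libraries. The groups did not overlap, and the difference was 1.19-fold (log2 fold change -0.25 ± 0.05 SE, edgeR adjusted p = 0.00314). B4galt3, a related enzyme with the same acceptor, had 17.5, 17.1 and 17.0 CPM in resistant and 24.1, 27.8 and 23.0 CPM in sensitive libraries (-0.54 ± 0.09 SE, edgeR adjusted p = 0.00116). Its annotated exons share 791 bases with Ppox on the other strand, a gene that was lower too (-0.52 ± 0.12 SE, edgeR adjusted p = 0.00538); the strand setting of the counting is not given, so reads of the pair cannot be told apart. B4galt6, a lactosylceramide synthase gene and with B4galt1 the most abundant of its family per length, did not pass, at 286 ± 31.5 CPM in resistant and 271 ± 12.9 CPM in sensitive blasts (0.08 ± 0.08 SE, edgeR adjusted p = 0.455).

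B4galt2, at 0.220, 0.227 and 0.312 CPM in resistant and 0.516, 0.627 and 0.481 CPM in sensitive libraries, had the largest fold of the family (log2 fold change -1.08 ± 0.36 SE, edgeR adjusted p = 0.0369). It rested on 20 counts in resistant and 46 in sensitive libraries. Leaving out any 1 of the 6 libraries ended its call (edgeR adjusted p = 0.0558 without resistant library 3 to 0.134 without sensitive library 2). With DESeq2 the adjusted p was 0.206. The annotated exons of B4galt2 share 1417 bases with Ccdc24 on the same strand and 46 with Slc6a9 on the other. Ccdc24 was at 0.264 CPM in resistant and 0.121 CPM in sensitive blasts, and Slc6a9 at 0.212 and 0.494 CPM. How shared reads were handled is not stated. B4galt4 (-0.94 ± 0.25 SE), B3galt4 (-0.58 ± 0.15), B3galt6, the enzyme that adds the second galactose of the proteoglycan linker (-0.42 ± 0.10), and B4galt7, which adds the first (-0.29 ± 0.09), also passed as lower, with edgeR adjusted p = 0.0127, 0.00991, 0.00617 and 0.035. B4galt4 lost its call without sensitive library 2 (adjusted p = 0.0636) and B3galt4 without sensitive library 3 (0.0505). B4galt7 lost it without any 1 library other than resistant library 2, with adjusted p up to 0.107. B4galt5 and B3galt5 did not pass, and the log2 fold changes of both were within 0.06 of 0.

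Of the B3gnt genes, whose enzymes add GlcNAc to galactose and so lengthen chains, B3gnt2 fell and B3gnt5 rose. B3gnt2, the main polylactosamine synthase, had 31.7, 42.6 and 32.1 CPM in resistant and 86.5, 77.6 and 79.2 CPM in sensitive libraries. The highest resistant value was far under the lowest sensitive one (2.30-fold, log2 fold change -1.20 ± 0.11 SE, edgeR adjusted p = 1.63e-05). B3gnt5, which starts the lacto-series glycolipids from lactosylceramide, had 2.83, 4.64 and 3.31 CPM in resistant and 1.93, 1.57 and 1.76 CPM in sensitive libraries. Every resistant value was above the sensitive ones, with the widest spread in resistant blasts (2.03-fold, 1.02 ± 0.22 SE, edgeR adjusted p = 0.00498). B3gnt8, which works with B3gnt2, was lower by little (-0.30 ± 0.08 SE, edgeR adjusted p = 0.0104, and 0.0538 without sensitive library 3). Its exons share 1171 bases with Bckdha on the other strand, which did not pass. Bckdha stood at 104 CPM in resistant and 113 CPM in sensitive blasts, above B3gnt8 at 50.9 and 62.5 CPM. As the strand setting is not given, reads of the pair cannot be told apart. B3gnt3, B3gnt7 and B3gnt9 had overlapping groups and did not pass. B3gnt2 took 23.0 ± 1.61% of the family's summed level per kilobase in resistant and 36.3 ± 1.77% in sensitive blasts; with the union of a gene's exons as its length the shares were 42.2% in resistant and 59.3% in sensitive blasts.

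The polypeptide GalNAc-transferases, which start mucin-type O-glycans and differ in the peptides they prefer, showed opposite moves of single members. Galnt6 had 76.7, 83.0 and 86.5 CPM in resistant and 148, 151 and 152 CPM in sensitive libraries. It was 1.83-fold lower in resistant blasts with no overlap (log2 fold change -0.87 ± 0.06 SE, edgeR adjusted p = 2.25e-06). Galnt11, whose human counterpart glycosylates NOTCH1, had 8.66, 11.0 and 11.5 CPM in resistant and 24.2, 21.8 and 20.6 CPM in sensitive libraries. Its resistant values were again all below the sensitive ones (2.14-fold, -1.10 ± 0.12 SE, edgeR adjusted p = 6.24e-05). Galnt7, which prefers peptides that already carry a GalNAc, rose to 38.5, 35.8 and 32.6 CPM in resistant libraries, against 18.5, 18.0 and 16.3 CPM in sensitive ones. The difference was 2.03-fold and held in every library (1.02 ± 0.09 SE, edgeR adjusted p = 1.44e-05). Galnt12 was higher too, at a low level of 1.55 ± 0.45 CPM in resistant and 0.849 ± 0.0424 CPM in sensitive blasts (0.85 ± 0.28 SE, edgeR adjusted p = 0.034), and lost its call with DESeq2 and without any 1 library other than resistant library 1 (adjusted p up to 0.114, without resistant library 2).

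Galnt1, a widely expressed member and the most abundant of the family per length, did not pass, at 210.7 ± 8.34 CPM in resistant and 228 ± 11.8 CPM in sensitive blasts (log2 fold change -0.11 ± 0.06 SE, edgeR adjusted p = 0.153). Galnt2, another widely expressed member, lay at the threshold (-0.31 ± 0.11 SE, edgeR adjusted p = 0.0502). It passed as lower in 8 alternatives, among them the fits without resistant library 2 (adjusted p = 0.0195) and without sensitive library 3 (0.0144). Its annotated exons share 3854 bases with Gm20388 on the same strand, whose level was 37.6 CPM in resistant and 40.6 CPM in sensitive blasts. Galnt9, at 0.227 to 1.02 CPM, passed as lower only without resistant library 1 (adjusted p = 0.0186, against 0.109 with all libraries). Galnt3, Galnt4, Galnt10 and Galnt18 did not pass, with log2 fold changes of -0.13 to 0.35, and 6 members were too low to test. Per kilobase the family summed to 113 ± 1.21 CPM per kb in resistant and 138 ± 4.84 CPM per kb in sensitive blasts; Galnt6 held 19.1 ± 1.29% of it in resistant and 28.8 ± 1.39% in sensitive blasts, and Galnt7 held 7.30 ± 0.551% in resistant and 2.96 ± 0.0955% in sensitive blasts.

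**Figure D3:**
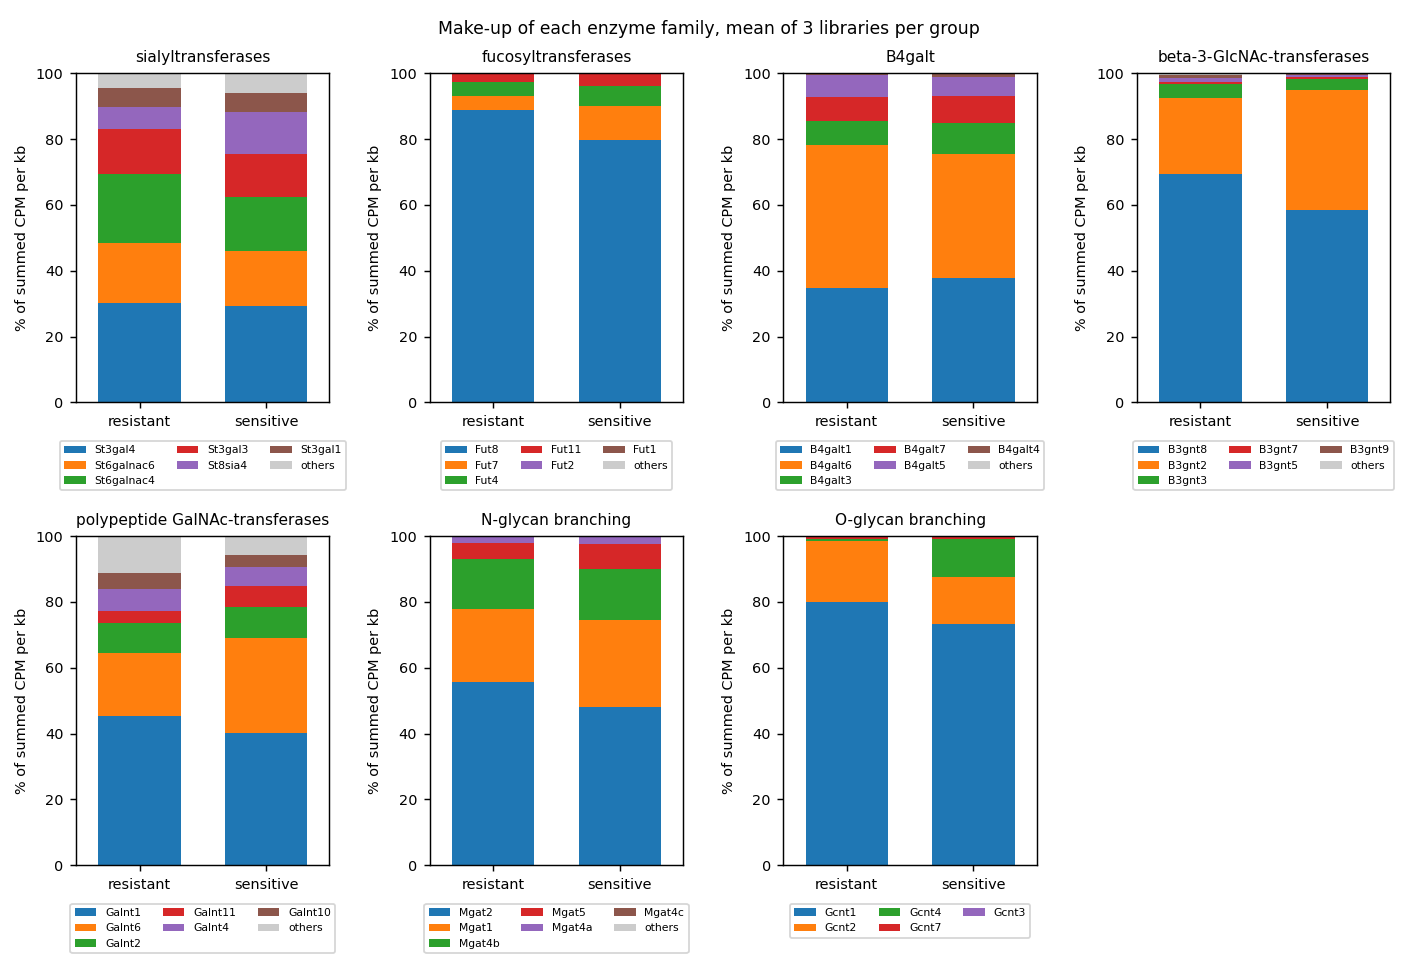
Share (y axis, % of the family's summed CPM per kb, mean of 3 libraries) of each member in 7 families, resistant bars left of sensitive ones. Shares of Fut7, B3gnt2, Galnt6, Mgat5 and Gcnt4 are smaller in resistant blasts, and that of Fut8 (88.9% against 79.7%) is larger; Galnt7 is among the others of its family, whose grey part is larger in resistant blasts.

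The Mgat genes set how many branches an N-glycan carries. Mgat1, which adds the first GlcNAc and opens the route to complex N-glycans, had 52.7, 59.0 and 59.4 CPM in resistant and 89.9, 82.3 and 84.5 CPM in sensitive libraries. The groups lay apart by many times the spread in either (1.5-fold, log2 fold change -0.59 ± 0.07 SE, edgeR adjusted p = 8.99e-05). Mgat5, which makes the beta-1,6 branch that carries polylactosamine and galectin ligands, had 35.1, 35.7 and 32.9 CPM in resistant and 76.7, 69.9 and 58.3 CPM in sensitive libraries. It had the deepest fall of the family, with tight resistant values and a wider spread in sensitive blasts (1.98-fold, -0.98 ± 0.10 SE, edgeR adjusted p = 2.94e-05); its exons share 152 bases with Tmem163 on the other strand, a gene at 2.28 CPM in resistant and 5.50 CPM in sensitive blasts. Mgat4a and Mgat4b, whose enzymes make the beta-1,4 branch, were lower by 0.42 ± 0.11 and 0.33 ± 0.10 SE in resistant blasts on the log2 scale (edgeR adjusted p = 0.0131 and 0.0186). Mgat4a lost its call without sensitive library 3 (adjusted p = 0.053), and Mgat4b without resistant library 3, sensitive library 2 or sensitive library 3 (up to 0.0861). Mgat2, the enzyme between Mgat1 and the branching steps and the most abundant of the family per length, did not pass, at 120.7 ± 10.8 CPM in resistant and 129.7 ± 15.6 CPM in sensitive blasts (edgeR adjusted p = 0.387). Mgat3, which adds the bisecting GlcNAc, had 0 counts in all 6 libraries.

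All 3 tested genes of O-glycan and polylactosamine branching were lower, though Gcnt4 was tested only through its level in sensitive blasts. Gcnt4, a core 2 beta-1,6-GlcNAc-transferase, had the largest change of all 54 genes. It had 0.063, 0.182 and 0.117 CPM in resistant and 4.99, 4.35 and 3.94 CPM in sensitive libraries, from 9 counts in resistant and 379 in sensitive libraries. Resistant libraries stood near the floor of 3 counts, and the fitted log2 fold change was -5.22 ± 0.32 SE (edgeR adjusted p = 1.18e-06); the ratio of the summed counts, scaled by depth, was 39.0-fold, with an exact 95% interval of 20.3 to 85.9 for counting error. Gcnt1, the core 2 enzyme of leukocytes on whose branch O-linked selectin ligands are built, had 15.9, 14.5 and 13.6 CPM in resistant and 27.9, 23.2 and 25.8 CPM in sensitive libraries. No values overlapped (1.74-fold, log2 fold change -0.80 ± 0.10 SE, edgeR adjusted p = 0.000151). Gcnt2, the I-branching enzyme of polylactosamine, had 3.05, 2.46 and 4.09 CPM in resistant and 5.19, 4.47 and 4.68 CPM in sensitive libraries. It passed by little (-0.57 ± 0.19 SE, edgeR adjusted p = 0.0373) and lost its call without any 1 library other than resistant library 3 (adjusted p up to 0.113, without sensitive library 1). Gcnt1 led the family per length in both groups, with 80.1 ± 4.18% of the sum in resistant and 73.2 ± 1.76% in sensitive blasts, while Gcnt4 held 0.606 ± 0.322% in resistant and 11.5 ± 0.946% in sensitive blasts. Gcnt3 and Gcnt7 were too low to test.

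The genes that feed these enzymes and carry or read their products were described from 9 lists. The counts of each list stand beside 18.5% higher and 20.8% lower among all tested genes. Of 14 genes of CMP-sialic acid supply and sialidases, 6 of them described above, 12 were tested, with 3 higher, 3 lower and 6 not passing. Outside the 6, Renbp, the renin-binding protein gene, was lower (log2 fold change -0.26 ± 0.08 SE, edgeR adjusted p = 0.0302), and the higher genes were Slc17a5, the lysosomal sialic acid exporter (0.27 ± 0.07 SE, edgeR adjusted p = 0.0108), and Ctsa, the protective protein of lysosomal Neu1 (0.24 ± 0.05 SE, edgeR adjusted p = 0.00372). Slc35a1, which carries CMP-sialic acid into the Golgi, did not pass (0.21 ± 0.08 SE, edgeR adjusted p = 0.0683). Nucleotide sugar transporters had 2 of 14 higher and 4 lower; without resistant library 3, 4 were higher. Slc35c1, the Golgi GDP-fucose transporter, was lower, at 87.3 ± 2.71 CPM in resistant and 112 ± 3.76 CPM in sensitive blasts (-0.37 ± 0.05 SE, edgeR adjusted p = 0.000503).

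Fucose supply and protein O-fucosylation genes had 3 of 12 higher and 3 lower, near the 18.5% and 20.8% of all tested genes. Gmds, which takes the first step from GDP-mannose toward GDP-fucose, rose to 51.7 ± 0.567 CPM in resistant blasts, against 34.5 ± 1.26 CPM in sensitive ones (0.58 ± 0.06 SE, edgeR adjusted p = 6.2e-05), and Fuk, the fucose salvage kinase, rose by 0.40 ± 0.06 SE (edgeR adjusted p = 0.000677). N-glycan assembly and trimming had 5 of 32 higher and 8 lower (3 higher without sensitive library 1 or 2), near the background. The mannosidase genes Man1a and Man1b1, whose enzymes trim the N-glycan before Mgat1 acts, were lower by 0.63 ± 0.07 and 0.55 ± 0.06 SE on the log2 scale. O-glycan core and sulfation genes had 1 of 7 higher and 3 lower; the riser did not pass without resistant library 1, sensitive library 1 or sensitive library 2. The deepest fall of the 3 was that of B4galnt4 (-2.58 ± 0.41 SE), from 11 counts in resistant and 73 in sensitive libraries. Gal3st4 was lower by 0.97 ± 0.19 SE on the log2 scale. C1galt1c1, the chaperone Cosmc that core 1 synthase needs, was also among the 3, at 21.7 ± 3.58 CPM in resistant and 36.6 ± 5.65 CPM in sensitive blasts (-0.75 ± 0.13 SE, edgeR adjusted p = 0.0016).

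Glycosphingolipid genes had 1 of 12 higher and 5 lower, against 18.5% and 20.8% of all tested genes. The count of higher genes was 2 with DESeq2, with a replicate block and without resistant library 1. That of lower genes was 3 without sensitive library 3. The lower ones were led by genes of lysosomal breakdown: Gm2a, the GM2 activator (-0.55 ± 0.07 SE), Psap, the saposin precursor (-0.39 ± 0.07 SE), and Glb1, the lysosomal beta-galactosidase (-0.39 ± 0.09 SE). Ugcg was the higher gene of the main fit (0.32 ± 0.08 SE, edgeR adjusted p = 0.00869). Hexosamine supply had 5 of 20 higher and 7 lower, with Ugp2 and Galk1 each at 0.39 ± 0.06 SE; without sensitive library 2 the counts were 3 and 3, and the lower count was 4 without resistant library 3 and 3 without sensitive library 3.

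Lectins that read sialic acid, fucose or galactose had 4 of 18 tested genes higher and 5 lower, near the shares of all tested genes. Asgr2, a subunit of the asialoglycoprotein receptor, which binds exposed galactose, was higher, at 10.8 ± 1.43 CPM in resistant and 1.0 ± 0.167 CPM in sensitive blasts (log2 fold change 3.42 ± 0.18 SE, edgeR adjusted p = 3.73e-07). Of 10 tested glycoprotein carriers of selectin ligands, 3 were higher and 4 lower, against 18.5% and 20.8% of all tested genes. Selplg, which encodes PSGL-1, the main P-selectin ligand, was lower, at 128 ± 12.4 CPM in resistant and 165 ± 6.67 CPM in sensitive blasts (-0.36 ± 0.07 SE, edgeR adjusted p = 0.00286), and Cd24a was lower by 0.92 ± 0.12 SE on the log2 scale. Podxl, a sialomucin gene, was higher at a low level, with 1.46 ± 0.621 CPM in resistant and 0.156 ± 0.0701 CPM in sensitive blasts (3.23 ± 0.46 SE, edgeR adjusted p = 0.000406).

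Of the genes that build sialyl Lewis x on O-glycans, Gcnt1, B4galt1, St3gal4 and Fut7 were each lower in all 3 resistant libraries, by 0.25 to 0.96 on the log2 scale, while Fut4 did not pass and St3gal6 was too low to test. C1galt1, the core 1 synthase gene, did not pass (0.18 ± 0.10 SE, edgeR adjusted p = 0.163), while C1galt1c1, the gene of its chaperone, was lower. The carrier gene Selplg was lower in the same libraries. Of the 10 tested carrier genes, 4 were lower and 3 were higher, namely Cd34, Lamp2 and Podxl.

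**Figure D4:**
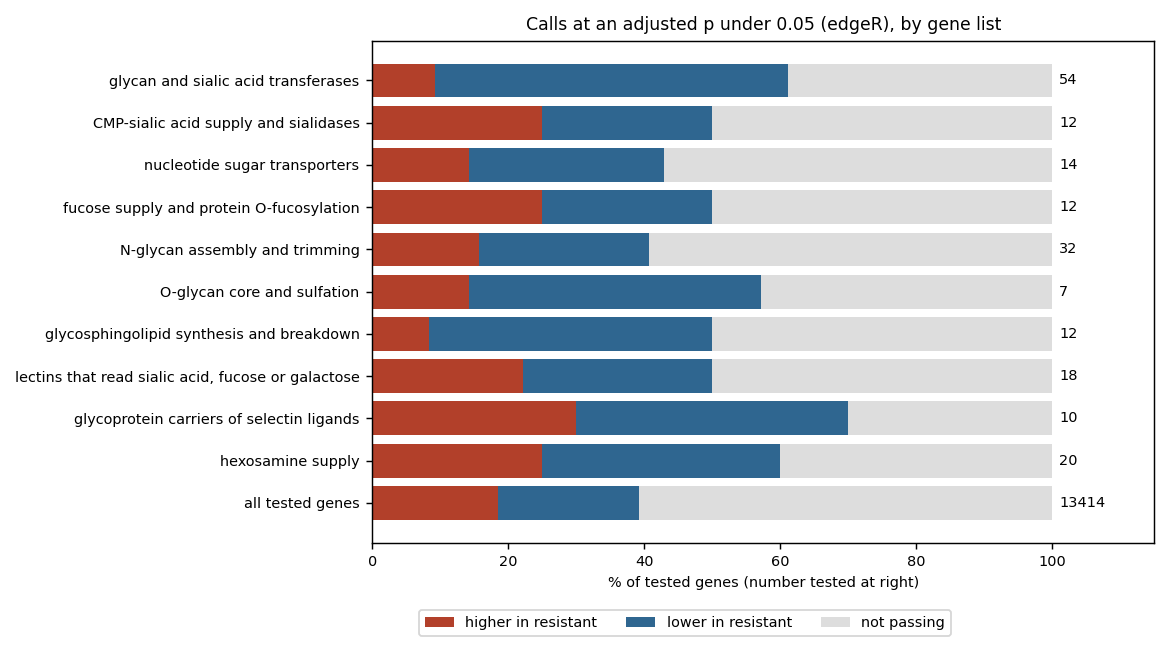
Share of tested genes (x axis, %; number tested at right) that were higher, lower or not passing in resistant blasts, for the glycan and sialic acid transferases, 9 lists of related genes and all tested genes (y axis). The transferases have 51.9% lower and 9.26% higher, against 20.8% and 18.5% of all tested genes; the list of CMP-sialic acid supply shares 6 genes with the transferases.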

How the data were processed

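RNA sequencing libraries were made with a TruSeq kit from column-extracted total RNA, per the labels' protocols. The authors deposited whole-number counts per Ensembl gene; the submitters' processing notes name TopHat2, RSEM and the build mm9. Whether the counts are rounded estimates, the strand setting and the handling of shared reads are not stated in the labels or notes, so overlapping genes and close paralogs are uncertain. The 6 columns matched 1 sample each by title. Symbols (31636 of 35932 IDs) and lengths of the longest protein-coding transcript came from GENCODE M21, and promoters from RefSeq's GRCm38.p6 table, which held 25 of the 28 lower, 4 of the 5 higher and 14 of the 21 other tested genes.

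Counts were filtered (filterByExpr), scaled with TMM factors of 0.9784 to 1.0164 and tested with edgeR 4.0.16 under R 4.3.3 (glmQLFit and glmQLFTest, the group as the only term), with Benjamini-Hochberg adjustment across 13414 genes at a threshold of 0.05. The fit was also run on simulated counts, which does not show how it performs on these libraries. Levels are CPM, as mean ± SD over 3 libraries; shares and comparisons between genes use CPM per kilobase. No library was a copy of another: the chi-square divided by its degrees of freedom was 3.92 to 13.59 for library pairs of 1 group and 37.47 to 63.21 across groups. Alternatives were RLE, upper-quartile and library-total scaling, no filter, a filter of 1 CPM, DESeq2 1.42.0, limma-voom (limma 3.58.1), a replicate block and each library left out.

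The genes, the 9 related lists and the marker lists were chosen with earlier results of these data known. Values per library are given for genes past the test with a log2 change of at least 1, the 2 with the smallest adjusted p in each family (sialyltransferases by subfamily), and the panel St6gal1, St3gal4, St3gal6, Fut4, Fut7, Gcnt1, B4galt1, Cmah and Gne; from each list up to 3 further genes with the smallest adjusted p are named. Neu1, St6gal2, Gcnt2, Slc35a1, C1galt1, Cd34, Lamp2, Ugcg and genes at the threshold were added after their values were seen. Some genes that the rule names are left out of the text.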

Additional observations from a re-analysis of the deposited data

How the results depend on the processing

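Under the 8 settings that kept all libraries, 4 or 5 of the transferase genes were higher and 28 to 30 lower; with 1 library left out, 4 to 5 were higher and 22 to 28 lower, and 0 of the 33 called genes changed sign. Replicate numbers gave no sign of pairing (correlations of same-numbered libraries 0.037, -0.006 and -0.086), which with 3 libraries per group cannot exclude a pairing. With a replicate block 5 genes were higher and 29 lower. Among all tested genes, left-out libraries gave 1641 to 2521 higher, lowest without sensitive library 2, and 2015 to 2711 lower, against 2475 and 2785 with all. Left-out libraries gave 2 to 4 higher nucleotide sugar transporters, 3 to 6 higher N-glycan assembly genes, 0 to 1 higher O-glycan core genes, 1 to 2 higher and 3 to 5 lower glycosphingolipid genes, and 3 to 6 higher and 3 to 6 lower hexosamine genes. The higher glycosphingolipid genes numbered 2 with DESeq2 and 2 with the replicate block.

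Shares within a family rest on the length used. With the union of exons, chosen after seeing the data, St3gal4 held 50.1% of St3gal in resistant and 49.0% in sensitive blasts, Fut8 78.1% and 64.1% of its family in resistant and sensitive blasts, Galnt1 40.7% and 35.9%, and Mgat2 62.5% and 55.1%; B4galt1 held 39.8% in sensitive blasts. B3gnt8 was then below B3gnt2 in both groups. Depth limits the genes under the filter: 32 of the 86 genes cannot be compared here.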
